A study of Mus musculus with 22 samples.

Results

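The aryl hydrocarbon receptor battery comprised 8 genes here, Ahr, Arnt, Ahrr, Tiparp, Cyp1a1, Cyp1a2, Cyp1b1 and Aldh3a1. They were taken by name, through the RefSeq accession of their probes, from 20018 genes that could be named on the array, and 13 probes report them. The data are dual-colour Agilent expression arrays of right lung RNA from 22 female C57BL/6 mice, 8 weeks old at the start. Each mouse received 1 intratracheal instillation of 40 µl and was killed 24 hours later. The 5 controls received the vehicle alone, 0.9% NaCl with 10% acellular lavage fluid of other mice, and the vehicle was also the dispersant of the Mitsui7 multi-walled carbon nanotubes. Nanotubes were instilled at 18 µg in 6 mice, at 54 µg in 5 and at 162 µg in 6.

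The aryl hydrocarbon receptor is a ligand-activated transcription factor that waits in the cytosol in a complex with heat shock protein 90. When it binds polycyclic aromatic hydrocarbons, dioxins or tryptophan metabolites it enters the nucleus, pairs with Arnt and binds DNA at xenobiotic response elements, whose core is GCGTG. Its classical targets are the CYP1 monooxygenases, which oxidize the ligands, the brakes Ahrr and Tiparp, and in some tissues the aldehyde dehydrogenase Aldh3a1. In lung, CYP1A1 and CYP1B1 are known as inducible enzymes of epithelium and endothelium, and Aldh3a1 as an enzyme of airway epithelium that oxidizes aldehydes from lipid peroxidation.

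The 250 bases upstream of the gene start are shown for the 4 battery genes whose start carries the response element core in that window and which are targets or feedback genes of the receptor. Capitals mark GCGTG on the printed strand, or CACGC where the core lies on the opposite strand. Sequences are those of RefSeq on build GRCm38.p6, read 5′ to 3′ along each gene. Positions are chr9:57697363-57697612 on the plus strand for Cyp1a1, chr17:79715062-79715311 on the minus strand for Cyp1b1, chr3:65528197-65528446 on the plus strand for Tiparp and chr13:74292332-74292581 on the minus strand for Ahrr.
Cyp1a1: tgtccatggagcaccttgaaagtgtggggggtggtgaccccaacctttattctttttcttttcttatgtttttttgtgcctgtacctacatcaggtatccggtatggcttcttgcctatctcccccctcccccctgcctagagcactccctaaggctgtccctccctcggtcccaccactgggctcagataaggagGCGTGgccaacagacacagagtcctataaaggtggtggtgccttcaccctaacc
Cyp1b1: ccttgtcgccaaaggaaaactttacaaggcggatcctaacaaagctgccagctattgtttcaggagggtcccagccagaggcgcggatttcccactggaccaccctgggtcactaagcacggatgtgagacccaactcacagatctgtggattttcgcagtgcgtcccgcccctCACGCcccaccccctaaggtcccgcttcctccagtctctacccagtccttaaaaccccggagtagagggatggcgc
Tiparp: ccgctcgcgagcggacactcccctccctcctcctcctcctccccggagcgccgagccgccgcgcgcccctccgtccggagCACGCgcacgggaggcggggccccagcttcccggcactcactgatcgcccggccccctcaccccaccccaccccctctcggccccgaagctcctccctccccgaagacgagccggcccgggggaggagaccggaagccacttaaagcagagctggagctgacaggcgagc
Ahrr: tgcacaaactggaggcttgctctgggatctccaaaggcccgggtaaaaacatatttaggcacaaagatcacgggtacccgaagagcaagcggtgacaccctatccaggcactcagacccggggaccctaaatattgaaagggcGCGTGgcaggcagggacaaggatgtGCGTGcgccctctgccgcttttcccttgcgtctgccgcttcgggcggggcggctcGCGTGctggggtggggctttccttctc

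A window was at hand for 6 of the 8 genes, and 5 of the 6 held the core. Ahrr held 3 copies, 107, 82 and 27 bases before the start and all on the strand of the gene. Cyp1a1 held 1 copy on its own strand at 54 bases, Arnt 1 at 29 bases, Cyp1b1 1 on the opposite strand at 76 bases and Tiparp 1 on the opposite strand at 170 bases. The window of Cyp1a2 held no copy, which speaks only of these letters in this window. On both strands, 28.2% of all 32851 windows of this length held at least 1 copy and 2.77% held 3 or more, so the match is a description of sequence and no measure of receptor binding.

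Every array carried lung RNA labelled with Cy5 and a reference RNA, pooled from 11 mouse cell lines, labelled with Cy3. All values below are therefore log2 ratios of lung to reference after loess normalization within the array. They compare groups for 1 probe and do not compare levels between genes. The arrays lay on 7 slides of 3 or 4, of which 5 held 1 control each and 2 held none. Dose and slide were fitted together with limma, and a gene is called where the adjusted p is at most 0.05, the change at least 1.5-fold and the probe brighter than the negative control spots in 80% or more of a group's arrays. Such signal was found for 70.5% to 77.7% of probes on control arrays and 56.8% to 77.9% at 18 µg. It was 58.1% to 78.9% at 54 µg and 52.1% to 83.5% at 162 µg. The lowest array of each dose lay on a slide without a control. Control replicate 2 stood apart by a mean log2 ratio of 4.11 over 9 neutrophil genes, against 1.49 to 1.91 in the other controls.

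Of the 8 genes, 7 passed the filter on signal and 1 of the 7, Aldh3a1, was called. It was lower at all 3 doses. None of Ahr, Arnt, Tiparp, Cyp1a1 or Cyp1b1 was called against control at any dose. Ahrr and Cyp1a2 were too dim for a fold change. Among 16433 expressed genes, 1.43% were called lower at 18 µg, 0.134% at 54 µg and 3.53% at 162 µg, 0.633%, 0.219% and 3.32% were called higher, and calls in either direction came to 2.06%, 0.353% and 6.85%. The number called depended on single mice: it was 339 at 18 µg, but 17 without control replicate 1, 37 without 18 µg replicate 5 and 579 without 54 µg replicate 5, and it was 58 at 54 µg, but 5 without 54 µg replicate 4 and 193 without 54 µg replicate 5. The median log2 fold change of the 7 genes was -0.18, -0.24 and -0.15 from the lowest to the highest dose. Over all expressed genes it was -0.02, -0.01 and -0.01. The 7 include Ahrr, so these are not medians of measured changes alone. Without Ahrr, the middle pair of genes had changes of -0.31 and -0.18 at 18 µg and -0.21 and -0.15 at 162 µg. At 54 µg the middle pair was Cyp1b1 at -0.24 and Ahr at 0.02, so the median at that dose depends on Ahrr. P-values measure the spread between these mice that is left once dose and slide are fitted, estimated over all groups together.

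**Figure D1:**
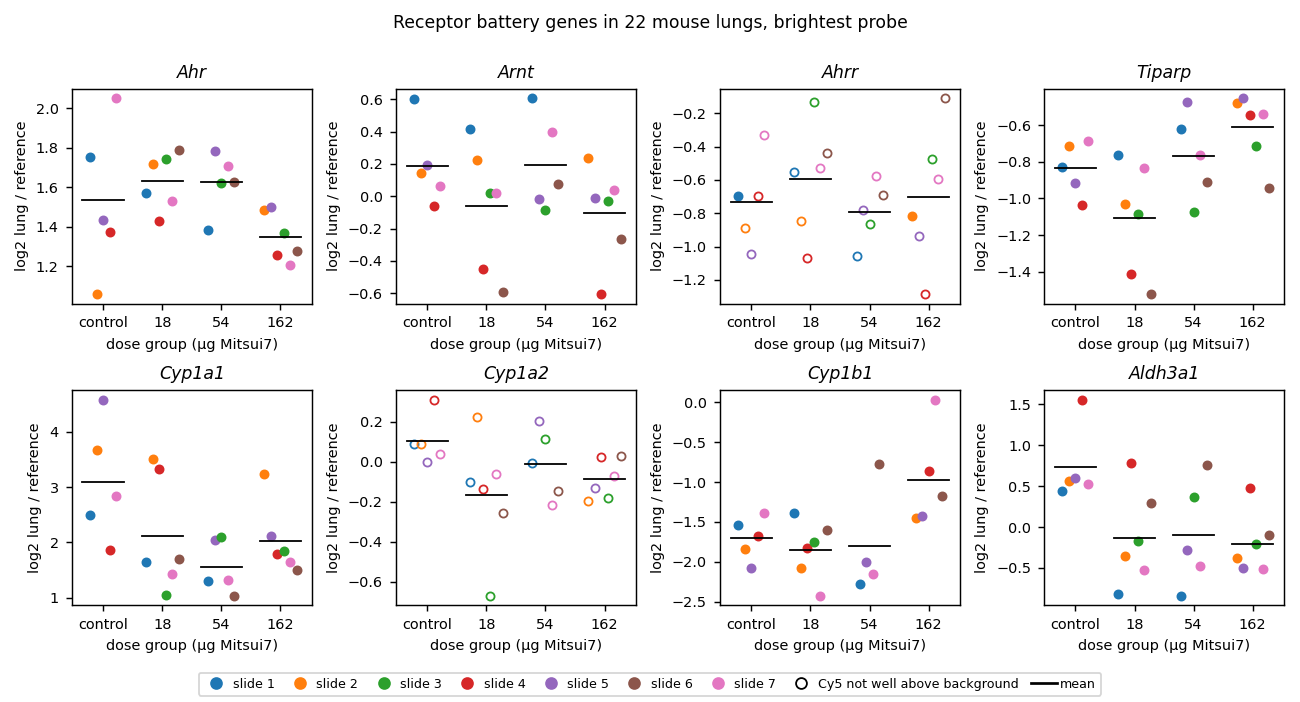
Log2 ratio of lung to reference RNA for the 8 battery genes on their brightest probe, 1 point per mouse in the control, 18, 54 and 162 µg groups, coloured by slide, with the group mean as a line. Open points lack a Cy5 signal well above background, as for every point of Cyp1a2. Controls of Aldh3a1 lie between 0.44 and 1.55, and the highest is on the slide that also holds the highest 18 µg and 162 µg mice.

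Aldh3a1 encodes a cytosolic dehydrogenase that oxidizes medium-chain and aromatic aldehydes. In the 5 controls its log2 ratio was 0.44, 0.57, 0.60, 1.55 and 0.52, a mean of 0.74 ± 0.46 (SD, n = 5). At 18 µg it was -0.82, -0.35, 0.79, -0.18, -0.53 and 0.29, a mean of -0.13 ± 0.58 (SD, n = 6). The group overlapped the controls through 1 mouse, replicate 3, on the slide of control replicate 4, while the other 5 lay below every control. At 54 µg the values were -0.84, -0.29, 0.37, -0.48 and 0.75, a mean of -0.10 ± 0.65 (SD, n = 5), and 4 of 5 mice lay below every control. At 162 µg they were -0.37, -0.50, 0.47, -0.21, -0.52 and -0.09, a mean of -0.20 ± 0.37 (SD, n = 6), and 5 of 6 mice lay below every control.

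With slide in the model, the log2 fold change of Aldh3a1 was -1.03 (SE, the standard error, 0.12, adjusted p = 0.00171) at 18 µg, a level 2.05-fold lower than in controls. It was -0.83 (SE 0.13, adjusted p = 0.0133) at 54 µg, or 1.78-fold lower, and -1.17 (SE 0.12, adjusted p = 6.69e-05) at 162 µg, or 2.25-fold lower. Aldh3a1 was among 14 of 16433 expressed genes (0.0852%) called lower at each dose, comparisons that share their controls. In whole lung, fewer cells of a type and less RNA per cell cannot be told apart. The calls rest on the slide term, which the study's own model also held: without it the changes were -0.87, -0.83 and -0.94 and none was called (adjusted p = 0.151, 0.467 and 0.07). At 54 µg the call was also lost with slide as a random block (adjusted p = 0.191), in the deposited log2 table (adjusted p = 0.0666) and without control replicate 1, 3 or 5 or 54 µg replicate 2 or 4 (adjusted p from 0.0612 to 0.0902). The sign was negative at each dose under every alternative run. Without control replicate 2, which had high neutrophil markers, the changes were -1.08, -0.86 and -1.22 and all were called.

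On a second probe of Aldh3a1 the log2 fold change was -1.19 (SE 0.17, adjusted p = 0.00656) at 18 µg, -0.90 (SE 0.18, adjusted p = 0.0615) at 54 µg and -1.28 (SE 0.17, adjusted p = 4.29e-04) at 162 µg, called at the lowest and the highest dose. At 162 µg 6 of 6 mice lay below every control on this probe, a pattern that 4.42% of genes showed at that dose.

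The 5 slides with a control allow 11 pairs of a treated mouse with the control beside it, and Aldh3a1 was lower in the treated mouse in 11 of 11 pairs on both probes. On the brightest probe the difference ranged from -1.28 to -0.76, with medians of -0.98 at 18 µg (4 pairs), -1.0 at 54 µg (3 pairs) and -1.06 at 162 µg (4 pairs). On the second probe it ranged from -1.43 to -0.81. Pairs on a slide share its control and are not independent, and 4.03% of 15650 genes measured in all pairs were lower in each.

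**Figure D2:**
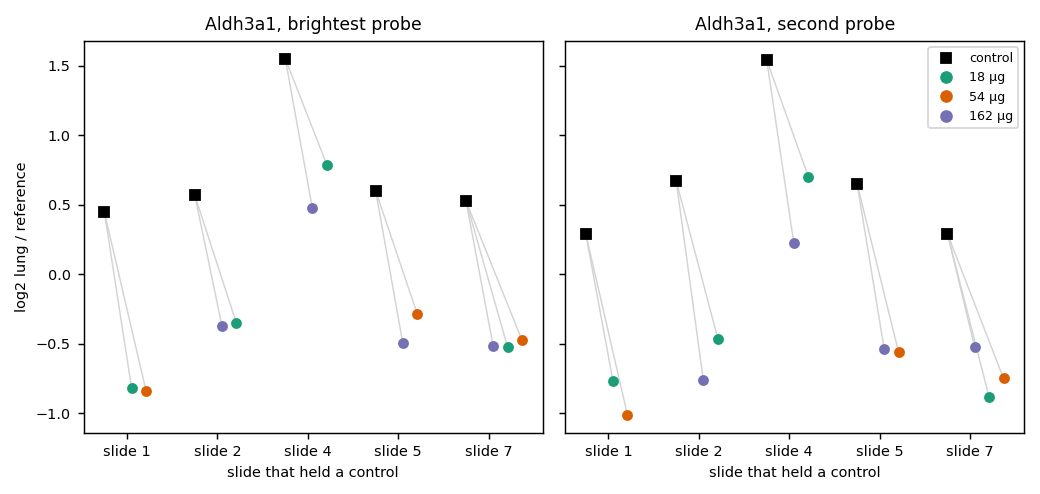
Log2 ratio of lung to reference for Aldh3a1 on the 5 slides that held a control, for the brightest probe (left) and the second probe (right). Squares are controls and circles treated mice coloured by dose, joined to the control of their slide by grey lines. All 11 lines fall in each panel, by 0.76 to 1.28 on the brightest probe.

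No difference between doses passed the test for Aldh3a1. The difference of 162 µg from 18 µg was -0.14 (95% confidence interval -0.37 to 0.10, adjusted p = 0.628), that of 54 µg from 18 µg 0.21 (-0.04 to 0.46, adjusted p = 0.599) and that of 162 µg from 54 µg -0.34 (-0.59 to -0.09, adjusted p = 0.423). The intervals are not adjusted for the number of genes.

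The receptor itself did not pass the test at any dose. Ahr had a log2 ratio of 1.75, 1.06, 1.43, 1.37 and 2.05 in the 5 controls, a wider spread than in any treated group. Its lowest, median and highest values were 1.43, 1.65 and 1.79 at 18 µg, 1.39, 1.63 and 1.79 at 54 µg and 1.21, 1.32 and 1.5 at 162 µg. All treated mice lay inside the range of the controls on this brightest probe, and the sign of the change at 18 µg and 54 µg differed between scalings. The log2 fold change was 0.09 (95% confidence interval -0.21 to 0.39, adjusted p = 0.832) at 18 µg, 0.02 (-0.30 to 0.34, adjusted p = 0.992) at 54 µg and -0.21 (-0.51 to 0.09, adjusted p = 0.514) at 162 µg. A second Ahr probe was dim, with Cy5 well above background on 11 of 22 arrays, and was called at no dose. On it 4 of 6 mice at 162 µg lay below every control and 1 above. At 54 µg 2 of 5 lay above every control and 2 below. Arnt, the partner with which the receptor binds DNA, had log2 fold changes of -0.18 (-0.42 to 0.05, adjusted p = 0.486), 0.04 (-0.22 to 0.30, adjusted p = 0.98) and -0.15 (-0.39 to 0.09, adjusted p = 0.589). A second Arnt probe, also well above background on all 22 arrays, gave changes of 0.27, 0.21 and 0.17 and was called at no dose either. Its 95% confidence interval at 18 µg was 0.03 to 0.50, not adjusted for the number of genes. It was higher than the slide's control in 11 of 11 pairs, by 0.01 to 0.47. Pairs on a slide share its control, and 2.75% of genes were higher in every pair. The probes of Arnt thus disagree in sign at 18 µg and 162 µg.

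Tiparp, of the brakes, could be measured in every mouse and was not called against control. It encodes a mono-ADP-ribosyltransferase that the receptor induces and that in turn restrains it. Controls had log2 ratios of -0.83, -0.71, -0.92, -1.03 and -0.69, the 18 µg mice -0.76, -1.03, -1.41, -1.08, -0.83 and -1.52, the 54 µg mice -0.62, -0.48, -1.08, -0.76 and -0.91 and the 162 µg mice -0.48, -0.45, -0.55, -0.71, -0.54 and -0.94. At 162 µg 4 of 6 mice lay above every control and 5 of 6 above every 18 µg mouse. Against control the log2 fold change was -0.16 (SE 0.11, adjusted p = 0.542) at 18 µg, 0.15 (SE 0.11, adjusted p = 0.799) at 54 µg and 0.35 (SE 0.11, adjusted p = 0.0666) at 162 µg. The 162 µg mice exceeded the 18 µg mice by 0.50 (SE 0.10, adjusted p = 0.00782), a 1.42-fold difference that passes the adjusted p and not the minimum fold, as 8.17% of expressed genes pass the adjusted p alone in this comparison. The second Tiparp probe gave 0.28 (SE 0.14, adjusted p = 0.353) for the same difference.

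Ahrr, the repressor that competes with the receptor for Arnt, was at the edge of detection. Its Cy5 signal was well above background on 2 of 22 arrays, control replicate 1 and 162 µg replicate 1, and above the negative control spots on 15. Its log2 ratio ranged from -1.05 to -0.33 in controls and from -1.28 to -0.11 at 162 µg, and no fold is given.

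Cyp1a1, the classical marker of receptor activation, was read at Cy5 signals of 417, 792, 1338, 380 and 326 in controls before normalization, and reached from 110 to 588 in the 18 µg mice, 127 to 266 in the 54 µg mice and 134 to 716 in the 162 µg mice. The reference RNA was well above background for this probe on only 2 of 22 arrays, so its ratio leans on a denominator near background. The log2 ratio was 2.50, 3.67, 4.57, 1.85 and 2.85 in controls, a mean of 3.09 ± 1.06 (SD, n = 5). It was 1.64, 3.51, 3.32, 1.05, 1.42 and 1.69 at 18 µg, 1.29, 2.04, 2.09, 1.31 and 1.03 at 54 µg and 3.24, 2.11, 1.80, 1.84, 1.64 and 1.5 at 162 µg. The treated groups centred below the controls and overlapped them.

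The log2 fold change of Cyp1a1 was -0.69 (SE 0.36, adjusted p = 0.395) at 18 µg, -1.14 (SE 0.39, adjusted p = 0.343) at 54 µg and -0.97 (SE 0.36, adjusted p = 0.144) at 162 µg. In the Cy5 channel alone the changes were -0.70, -1.04 and -0.87. Treated mice were lower than the control of their slide in 10 of 11 pairs, with differences from -2.54 to 1.47. At 162 µg the gene was called without control replicate 4 (-1.38, adjusted p = 0.0262) or without 18 µg replicate 3 (-1.01, adjusted p = 0.0499), and at 54 µg when those mice were fitted with the controls alone (-1.76, adjusted p = 0.00409). Without control replicate 3, the highest control, the changes shrank to -0.41, -0.71 and -0.58 (adjusted p = 0.647, 0.713 and 0.482). Cyp1a2, which lies beside Cyp1a1 in the genome and is foremost an enzyme of liver, was well above background on 0 of 22 arrays and is given no fold.

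Cyp1b1 metabolizes polycyclic hydrocarbons and steroid hormones and is widely expressed outside the liver. Its log2 ratio was -1.54, -1.84, -2.07, -1.67 and -1.39 in controls and -1.39, -2.08, -1.83, -1.75, -2.42 and -1.60 at 18 µg. It was -2.28, -2.00, -2.16 and -0.77 in 4 mice at 54 µg and -1.45, -1.43, -0.86, 0.03 and -1.18 in 5 mice at 162 µg, since the spots of 54 µg replicate 3 and 162 µg replicate 4 were left out as outliers. At 162 µg 3 of 5 mice lay above every control. The log2 fold change was -0.31 (SE 0.29, adjusted p = 0.681), -0.24 (SE 0.31, adjusted p = 0.923) and 0.66 (SE 0.29, adjusted p = 0.242) from the lowest to the highest dose, and the 162 µg mice were higher than the control of their slide in 4 of 4 pairs. The difference of 162 µg from 18 µg was 0.97 (SE 0.29, adjusted p = 0.0763), and it was called, at 0.97 to 1.23, without 18 µg replicate 1, 54 µg replicate 1 or 5, or 162 µg replicate 6. Without 162 µg replicate 5, the highest mouse, it was 0.65 (adjusted p = 0.202) and the change at 162 µg against control was 0.33 (adjusted p = 0.56), and in the deposited log2 table the difference between the doses was 0.41 (adjusted p = 0.4).

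**Figure D3:**
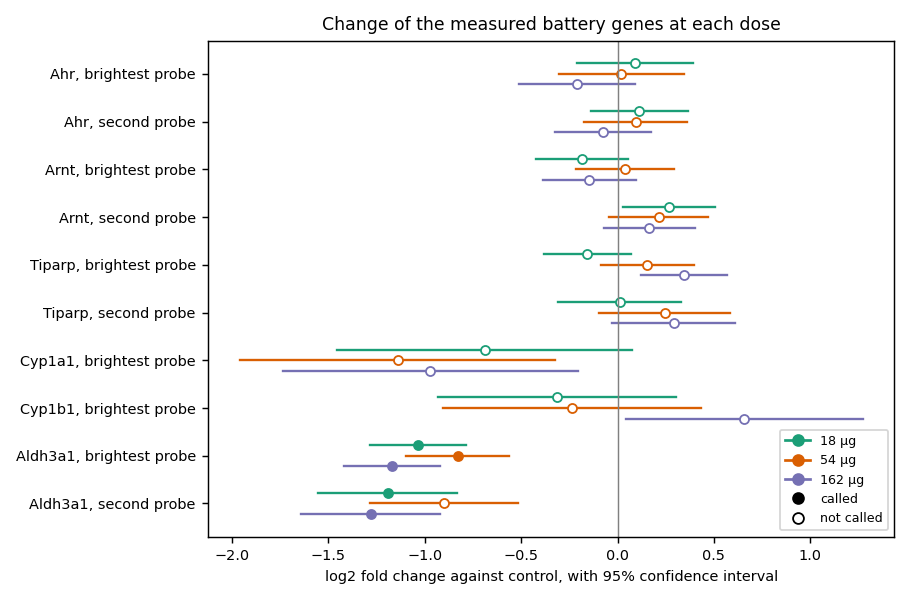
Log2 fold change against control of the 6 battery genes that could be measured, at 18, 54 and 162 µg, with 95% confidence intervals from limma, for the brightest probe and a second probe where there is one. Filled points were called. The points of Aldh3a1 run from -1.28 to -0.83 and are filled except for the second probe at 54 µg.

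Between doses, limma called 0 of the 7 genes in each of the 3 comparisons. At an unadjusted p below 0.05 there were 3 genes between 162 µg and 18 µg (Ahr, Cyp1b1 and Tiparp), against 26.5% of all expressed genes. Between 54 µg and 18 µg there were 2, against 14.9%, of which Tiparp was measured and Ahrr was not well above background in either group. Between 162 µg and 54 µg there were 2 (Cyp1b1 and Aldh3a1), against 12.2%. Against control the counts at that threshold were 1, 2 and 4 of 7 from the lowest to the highest dose, where 22.3%, 13.8% and 28.8% of expressed genes passed it. Calls with the adjusted p and the minimum fold came to 4.98%, 0.0304% and 0% of expressed genes between doses.

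The chaperones and coactivators that work with the receptor were measured for 11 of 12 genes. At 18 µg and 54 µg limma called 0 of them. At each of these doses 1 had an unadjusted p below 0.05, against 22.3% and 13.8% of expressed genes. At 162 µg limma called 2 lower, as it did 3.53% of expressed genes. Both encode forms of heat shock protein 90, which holds the unliganded receptor in the cytosol and serves many other client proteins. Hsp90aa1 lay between 0.12 and 0.83 in controls and between -1.25 and -0.16 at 162 µg, with 6 of 6 mice below every control and a log2 fold change of -1.08 (adjusted p = 0.0120), a call lost without control replicate 5 (-0.94, adjusted p = 0.0539). Hsp90ab1 lay between 0.36 and 0.54 in controls and between -0.82 and -0.11 at 162 µg, with 6 of 6 mice below every control and a change of -0.93 (adjusted p = 0.0120). All 162 µg mice lay below every control for 4.42% of genes. Ptges3, the p23 co-chaperone, had a change of -0.46 (adjusted p = 0.357) at that dose. The median change of the 11 genes was -0.01 at 162 µg, equal to that of all expressed genes at -0.01.

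Of 11 other measured genes known to be induced by the receptor, limma called 3 at 18 µg (1 of them higher), 0 at 54 µg, where 8 had an unadjusted p below 0.05 against 13.8% of all expressed genes, and 3 at 162 µg (2 of them higher). Over all expressed genes 2.06%, 0.353% and 6.85% were called at the 3 doses. Cyp2s1, a P450 of airway epithelium, fell from 3.36 to 4.03 in controls to 1.27 to 3.02 at 162 µg. Its log2 fold change was -1.15 (adjusted p = 0.0143) at 18 µg, -0.80 (adjusted p = 0.166) at 54 µg and -1.45 (adjusted p = 4.81e-04) at 162 µg. It was lower than the slide's control in 11 of 11 pairs, as were 4.03% of genes, and pairs on a slide share its control. Its call at 18 µg was lost without control replicate 1 or 5 or 18 µg replicate 5 (adjusted p from 0.0537 to 0.0769). Gsta2, a glutathione transferase, was called lower at 18 µg alone, by a log2 change of -1.79 (adjusted p = 0.0107), with -1.07 (adjusted p = 0.215) and -0.94 (adjusted p = 0.0626) at the higher doses. That call was lost without control replicate 1 (-1.62, adjusted p = 0.064). Its probe may read other alpha class transferases, which are nearly identical in sequence. Gsta1, one of them, had a change of 0.74 (adjusted p = 0.0624) at 162 µg.

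Higher at 162 µg were Xdh and Ereg. Xdh, the xanthine dehydrogenase of purine breakdown, lay between -0.25 and 1.3 in controls and between 1.41 and 2.59 at 162 µg, with 6 of 6 mice above every control and a log2 fold change of 1.31 (adjusted p = 5.49e-04). All 162 µg mice lay above every control for 3.69% of genes. Ereg, which encodes the growth factor epiregulin, was well above background in 0 of 5 controls and 5 of 6 mice at 162 µg. The fit with slide gave a change of 1.79 (adjusted p = 0.00378), and 1.38 to 2.12 under the other settings. Since the controls were not well above background, these values are no measured fold. Serpinb2, a serine protease inhibitor of macrophages and epithelium named here after its values were seen, was the gene called higher at 18 µg (0.86, adjusted p = 0.0330). Its Cy5 signal was well above background in only 3 of 5 controls and 4 of 6 mice at 18 µg. That call was not run under the alternatives. Nqo1, a quinone reductase and classical member of the receptor battery, had changes of -0.40, -0.35 and -0.01 (adjusted p = 0.132, 0.445 and 0.986).

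Of the enzymes that turn tryptophan into kynurenine and related receptor ligands, 7 of 9 were measured. Il4i1, an amino acid oxidase of immune cells whose tryptophan products bind the receptor, was called higher at 162 µg with a log2 fold change of 1.12 (adjusted p = 0.0118). It lay between 0.88 and 1.89 in controls and between 2.17 and 3.05 at 162 µg, and it was higher than the slide's control in 11 of 11 pairs over all doses, as were 2.75% of genes. At 18 µg and 54 µg limma called 0 of the 7, with 2 and 1 at an unadjusted p below 0.05, against 22.3% and 13.8% of expressed genes. Il4i1 had changes of 0.90 (adjusted p = 0.0749) and 0.75 (adjusted p = 0.364) at these doses. Ido1, which opens the kynurenine route, was not expressed above background, with Cy5 well above background on 0 of 22 arrays.

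Within the aldehyde dehydrogenase family, Aldh3a1 was the gene called lower at each dose. Of 19 other members measured, 3 were called at 18 µg (1 of them higher), 1 at 54 µg (higher) and 2 at 162 µg (1 of them higher), and their median change was -0.06, -0.01 and 0.11. Calls over all expressed genes came to 2.06%, 0.353% and 6.85%. Aldh1a3, which makes retinoic acid from retinaldehyde, was called higher at 54 µg and 162 µg. Controls lay between 0.33 and 0.84. The 18 µg mice spread from 0.48 to 3.92, the 54 µg mice from 2.53 to 6.67 and the 162 µg mice from 2.84 to 5.23. Its log2 fold change was 1.85 (adjusted p = 0.177), 3.84 (adjusted p = 0.0374) and 2.99 (adjusted p = 0.0130), and the call at 54 µg did not hold in 17 of the 22 fits that dropped 1 mouse, with 3.14 when 54 µg replicate 5 was dropped and 4.52 when 54 µg replicate 3 was.

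Aldh1a1, the main retinaldehyde dehydrogenase of many epithelia, was called lower at 18 µg (-1.11, adjusted p = 0.0309) and had changes of -0.62 and -0.54 (adjusted p = 0.463 and 0.226) at the higher doses. Aldh3b1, a relative of Aldh3a1 bound to membranes, was called lower at 18 µg (-0.80, adjusted p = 0.0437), and Aldh4a1, which completes proline breakdown in mitochondria, at 162 µg (-0.64, adjusted p = 0.0168). Aldh18a1, which works in proline synthesis and is named here after its values were seen, was the gene called higher at 18 µg (0.67, adjusted p = 0.0374). The call of Aldh18a1 was not run under the alternatives. With 1 mouse left out, the call was lost in 7 of 22 fits for Aldh1a1 (adjusted p up to 0.13), 16 for Aldh3b1 (up to 0.151) and 4 for Aldh4a1 (up to 0.0636), and that of Aldh1a3 at 162 µg without control replicate 3 (2.81, adjusted p = 0.055). Aldh3a2, the fatty aldehyde dehydrogenase, had changes of 0.19, 0.18 and 0.18 (adjusted p = 0.711, 0.904 and 0.741).

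**Figure D4:**
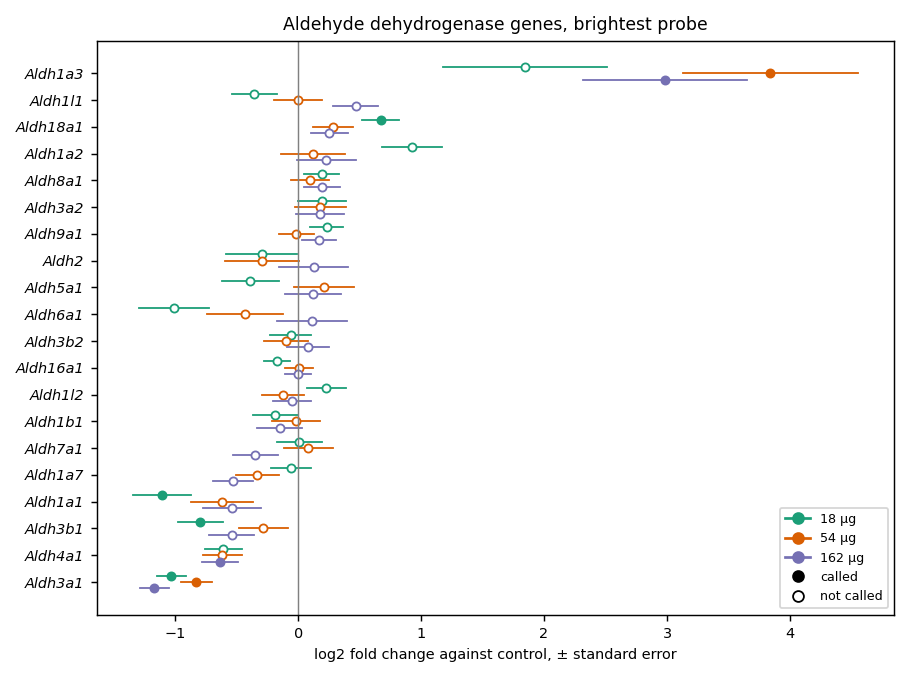
Log2 fold change against control, with the standard error as a bar, of Aldh3a1 and 19 other aldehyde dehydrogenase genes at 18, 54 and 162 µg. Filled points were called. Aldh3a1 is filled at all 3 doses below 0, and Aldh1a3 at 54 µg and 162 µg at 3.84 and 2.99.

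Markers of ciliated cells, the main beating cells of the airway lining, had negative changes at each dose in 10 of 10 genes, with medians of -1.03, -0.51 and -0.96. Of them limma called 1 lower at 18 µg (Hydin), 0 at 54 µg and 3 at 162 µg. Over all expressed genes 1.43%, 0.134% and 3.53% were called lower. At 54 µg 4 markers had an unadjusted p below 0.05, against 13.8% of expressed genes. At 162 µg Rsph1 changed by -1.45 (adjusted p = 0.00757), Hydin by -1.31 (adjusted p = 0.00126) and Dnaic1 by -0.92 (adjusted p = 7.01e-04). The call of Hydin at 18 µg (-1.14, adjusted p = 0.0173) was lost without control replicate 1 or 5 or 18 µg replicate 5 (adjusted p = 0.0798, 0.0708 and 0.0577) and in 5 of 13 other settings, and 1 of its 2 probes was called. Controls had a mean log2 ratio over the list of 2.89 to 3.18, against 1.09 to 3.08 in the 18 µg mice. The 54 µg mice had 1.82 to 2.89 and the 162 µg mice 0.88 to 2.76. Of the 10 markers, 0 were at or below the negative control spots on all arrays of any group. In controls all 10 were well above background on every array. This held for 8 markers in the 18 µg mice, 9 in the 54 µg mice and 6 in the 162 µg mice. The medians thus include markers without such signal on some treated arrays. Against the control of the same slide the mean over the ciliated list was lower in 11 of 11 pairs, with differences from -1.64 to -0.002. Pairs on a slide share its control. Of the same 11 pairs, the list mean was lower in 10 for club cells and 9 for fibroblasts. It was lower in 8 for large airway secretory cells and 3 for neutrophils. The part of ciliated cell RNA in the change of Aldh3a1 was not tested.

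Of 6 markers of club cells, the secretory cells of the bronchioles, 1 was called lower at 162 µg, against 3.53% of expressed genes. It was Cyp2f2, at -1.0 (adjusted p = 0.00510). That call was lost with slide as a random block (-0.88, adjusted p = 0.106), without the slide term (adjusted p = 0.329), with the replicate block in place of slide (adjusted p = 0.153) and with median centring (adjusted p = 0.203). The medians of the list were -0.64, -0.58 and -0.74. Their mean log2 ratio was 5.55 to 6.15 in controls and 4.23 to 5.57 at 162 µg. Lists of the other cells of lung gave medians at 162 µg of -0.03 for large airway secretory cells (10 genes), -0.29 for basal cells (5), 0.08 for type II and 0.22 for type I alveolar cells (8 and 4), 0.19 for endothelium (10), 0.05 for smooth muscle (5), -0.57 for fibroblasts (7), 0.64 for neutrophils (9) and 0.20 for alveolar macrophages (9). Called from these lists were Pdpn (1.04, adjusted p = 0.00668, type I), Marco (1.51, adjusted p = 0.00459, macrophages) and Col3a1 (-0.96, adjusted p = 0.0282, fibroblasts) at 162 µg. At 18 µg they were Kdr (0.65, adjusted p = 0.0480, endothelium) and Chil3 (1.73, adjusted p = 0.0457, macrophages). Calls in either direction came to 6.85% of all expressed genes at 162 µg and 2.06% at 18 µg. With 1 mouse left out the call was lost in 7 of 22 fits for Col3a1, 17 for Kdr and 15 for Chil3. In the 13 other settings it was lost in 8 for Kdr, 5 for Chil3, 3 each for Col3a1 and Pdpn and 2 for Marco. Of the 2 Kdr probes 1 was called at 18 µg. At 18 µg large airway secretory markers had a median of -1.27, with controls from 2.63 to 5.43, and the part of these cells in the battery's values was not tested.

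**Figure D5:**
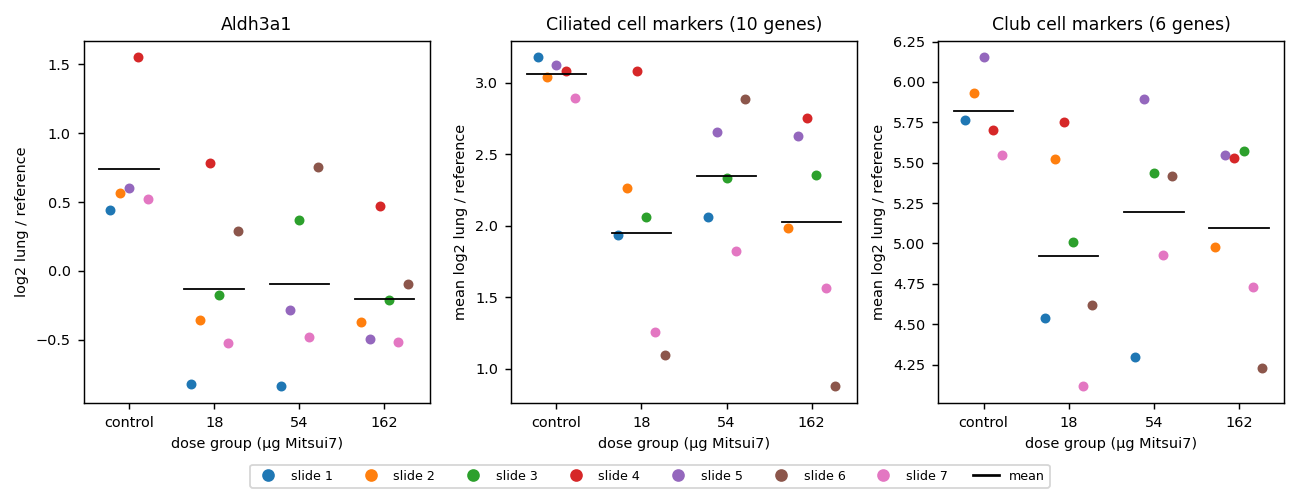
Log2 ratio of Aldh3a1 and mean log2 ratio of 10 ciliated and 6 club cell markers, 1 point per mouse in the control, 18, 54 and 162 µg groups, coloured by slide, with the group mean as a line. The controls of the ciliated list lie close together, at 2.89 to 3.18, and treated mice reach down to 0.88.

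The genes whose log2 ratio ran most like that of Aldh3a1 over the 22 arrays, among 14971 expressed genes measured on all of them, were Wdpcp (Pearson's r = 0.910, Spearman's rho = 0.883), Degs2 (0.892 and 0.827), Tymp (0.885 and 0.889), Wnt1 (0.876 and 0.890) and Fbxo36 (0.875 and 0.857). With slide means removed from all genes the highest were Dcdc2a (r = 0.959), Mgat3 (0.958), Hydin (0.943), Dbndd1 (0.942) and Wdpcp (0.937). The arrays share slides and reference RNA, and the values are descriptions without a test.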

How the data were processed

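The authors deposited, for each array, the median pixel intensity of every spot and of its local background in both channels, with no background subtraction or normalization. Per the file headers the scanner software was Feature Extraction 10.7.3.1. A table of log2 ratios of lung to reference that the authors deposited has a normalization that is not given in the sources used here, and served as an alternative.

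Median signals were used without background subtraction, as in the study's methods. Spots marked as outliers were left out, ratios were normalized by loess (span 0.3) and the median over replicate spots taken. Of 55681 probes, 26413 were named through RefSeq accessions. A probe counted as expressed with Cy5 above the trimmed mean (5%) plus 3 trimmed SD of 308 negative control spots. limma 3.58.1 in R 4.3.3 fitted dose and slide over 22 arrays (12 residual degrees of freedom), with Benjamini-Hochberg adjustment over all probes, and was tested on simulated data. The number of arrays limits the precision.

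A gene is its brightest probe. Members are given in full, and from each list the genes called at a dose, at most 4 by size of change at 162 µg (Nqo1, Gsta1, Ptges3, Ido1 and Aldh3a2 were added after their values were seen). The members and lists were chosen with earlier results of these data known. Alternatives were other normalizations, slide terms, filters and thresholds, the median over probes, and leaving out each mouse.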

Additional observations from a re-analysis of the deposited data

Results flagged for a closer look

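Of 32 groups of mice examined for the 8 genes, 2 held a mouse that stood apart from the rest of its group by a gap too large for its range, where chance flags about 1 in 20 groups. Control replicate 4 had an Aldh3a1 log2 ratio of 1.55, against 0.444 to 0.600 in the other 4 controls, and the 18 µg and 162 µg mice of its slide were also the highest of their groups. Without that control the change of Aldh3a1 was -1.08, -0.86 and -1.22 at 18, 54 and 162 µg and was called at each dose. The 162 µg mouse replicate 1 had a Cyp1a1 log2 ratio of 3.24, against 1.5 to 2.11 in the other 5 mice of that dose. Without it the change of Cyp1a1 at 162 µg was -1.03 (adjusted p = 0.205).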

How the results depend on the processing

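Of the 8 battery genes 1 was called at each dose, also under the alternatives not named here. It was 0 at all 3 doses without normalization and without the slide term, 0 at 18 µg and 54 µg with the replicate block in place of slide, and at 54 µg also 0 with the replicate block beside slide, median centring, the deposited log2 table and slide as a random block. Fitting each dose with the controls alone called 2 genes at 54 µg (with Cyp1a1) and 2 at 162 µg (with Cyp1b1). With 1 mouse left out the count stayed at 1 for 18 µg, was 0 to 1 for 54 µg and 1 to 2 for 162 µg, and was 0 to 1 between 162 µg and 18 µg, where it was 1 (Tiparp) with no minimum fold. Deviations of 15 same-numbered pairs of mice correlated at -0.17 to 0.403, with 9 over 0.1. Of these pairs 5 also shared a slide (0.16 to 0.403), so replicate number and slide are mixed. Whether replicate numbers pair the mice is thus not settled. Without normalization 5 genes of the array were called at 162 µg, against 1125, with 324 under median centring, 830 in the deposited table and 367 with the replicate block beside slide. The median of all genes shifted by -0.24 at 18 µg and -0.18 at 162 µg under median centring, and by -0.40, 0.14 and -0.20 at the 3 doses without normalization. The cause was not tested.

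Directions reversed for small changes that were not called. Ahr at 18 µg was -0.30 with median centring, -0.46 without normalization and -0.025 with the replicate block beside slide, and -0.069 to 0.24 with 1 mouse left out. At 54 µg Ahr was -0.013 with median centring, -0.0020 in the Cy5 channel alone, -0.12 with only the 2 groups and -0.27 with the replicate block, and -0.10 to 0.18 with 1 mouse left out. Arnt was 0.012 at 18 µg and 0.025 at 162 µg in the Cy5 channel alone, 0.040 and 0.0097 as the median over probes, and at 54 µg -0.027 with median centring and -0.015 in the deposited table, with -0.024 to 0.10 on leaving out 1 mouse. Cyp1b1 was 0.039 at 18 µg and 0.14 at 54 µg in the deposited table and 0.021 at 54 µg without normalization, with -0.51 to 0.028 on leaving out 1 mouse. The difference of Aldh3a1 between 162 µg and 18 µg was 0.088 without normalization and 0.0068 in the Cy5 channel alone. The number of arrays limits what could be detected, as does signal near background for Ahrr, Cyp1a2 and the reference channel of Cyp1a1.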
